A study of Homo sapiens with 16 samples.

Results

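HSB-2 cells carrying a scrambled control were compared with wild-type HSB-2 cells. HSB-2 is an established human line of T-ALL, the T-lineage form of acute lymphoblastic leukemia, and its labelled genotype is TAL1+. The comparison took 4 of the 16 RNA-seq libraries of the series, chosen by sample title: 2 libraries of HSB2_WT, for which the labels give no treatment, and 2 of HSB2_scrambled. The labels call the control treatment scrambled siRNA and the design calls it an shRNA scramble. According to the methods, the hairpin vectors were delivered by lentivirus and transduced cells were sorted for GFP or selected by puromycin. The scrambled cells therefore differed from wild-type cells in transduction, selection and hairpin sequence together, and these cannot be told apart here. Neither group carried a hairpin against USP7, the deubiquitylating enzyme that the other HSB-2 libraries were made to deplete, with 2 libraries of USP7 shRNA-4057 and 2 of USP7 shRNA-4058. The same 4 groups of 2 libraries were made from Jurkat, another T-ALL line. No source says whether the libraries of a group came from separate transductions or from repeat samples of one culture, so that p-values measure only the spread between these libraries, which may be technical.

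A scrambled hairpin has no intended target and serves as the baseline for a knock-down. Several gene programs respond quickly to what cells meet in culture. Immediate early genes such as FOS and EGR1 are switched on within minutes of growth factor or antigen receptor signals, without new protein synthesis, while interferon-stimulated genes are switched on by STAT and IRF factors after viral nucleic acid or interferon is sensed. In T cells the T-cell receptor, cytokine receptors with JAK3 and the NF-kB pathway feed into these programs.

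The libraries were deep. Total counts were 235467749 and 99208328 in the wild-type libraries and 186681891 and 177317064 in the scrambled libraries, and 3 counts, the limit taken for detection, corresponded to between 0.0127 and 0.0302 CPM. A CPM is a count set against the library's total, which was scaled by TMM, the trimmed mean of M-values, and it is not corrected for gene length. Levels that follow as a pair against a pair are both wild-type libraries against both scrambled libraries. Between 8.66% and 9.53% of a library's counts came from its 10 highest genes. The cells carried T-lineage markers: all 14 genes of that marker list were detected, with a summed level of 3360.1 to 3368 CPM in wild-type and 2852 to 2957 CPM in scrambled libraries. Marker lists of other cells were low. Summed levels cover only the members with enough counts to be tested. They were at most 3.51 CPM for 7 of 8 B-lineage and 0.473 CPM for 4 of 10 myeloid genes. For 3 of 9 erythroid and 4 of 7 epithelial genes they were at most 2.26 and 0.242 CPM. The fibroblast list of 6 genes reached 8.3 CPM through COL1A1, with COL1A2, COL3A1, DCN and LUM at 0 in the 4 libraries. The NK list of 6 genes reached 207 CPM in wild-type and 91.9 CPM in scrambled libraries through NKG7 and GNLY, which activated T cells also express.

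Both groups had USP7. Its level was 237 and 243 CPM in the wild-type libraries and 227 and 220.1 CPM in the scrambled libraries. The groups did not overlap, but the difference was small, at log2 -0.10 (SE 0.034, edgeR adjusted p = 0.0246), and the call was lost with a correction for GC and length and without 3 of the 4 libraries in turn. With the USP7 hairpins, levels were 144 and 149 CPM (shRNA-4057) and 162 and 156 CPM (shRNA-4058).

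The scrambled cells differed from wild-type cells in a large share of the transcriptome. Of 23063 genes tested, 7857 (34.1%) had an adjusted p under 0.05 by edgeR's two-sided quasi-likelihood test with Benjamini-Hochberg adjustment, the condition under which a gene is called here. Of these, 3723 (16.1%) were higher and 4134 (17.9%) were lower in scrambled cells. Most differences were small. A change of at least 2-fold was found for 416 called genes that were higher (1.8%) and 925 that were lower (4.01%). When the test itself asked for a change beyond 1.5-fold, 960 genes passed (4.16%), with 233 higher and 727 lower. Among the 10859 genes at 5 CPM or more on average, where the test is more sensitive, 51.7% were called, 25.9% higher and 25.8% lower. The groups did not overlap for 64.7% of all genes tested, and the median log2 fold change over all genes was 0.00, which is the reference for the medians of the gene lists below. The shares above, over all genes tested and over genes at 5 CPM or more, are the references for the counts of called members in these lists. Replicates lay close together, with a biological coefficient of variation of 3.75% among these 4 libraries.

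**Figure D1:**
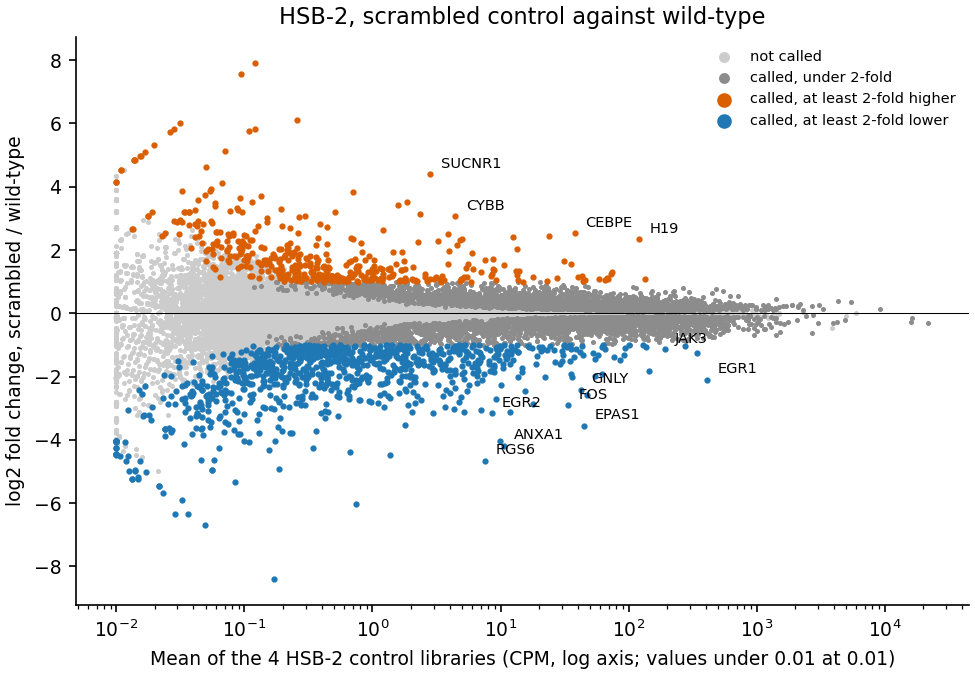
Each point is a gene tested in HSB-2 (sex-linked marker genes left out), with its mean level over the 4 control libraries in CPM on a log axis and its log2 fold change between scrambled and wild-type cells. Grey points were not called or changed less than 2-fold, orange points were called at least 2-fold higher and blue points at least 2-fold lower; over all genes tested the last class held 925 and the former 416, and EGR1 and EPAS1 were lower at high counts.

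The scrambled libraries stood at one end of the main axis among the 8 HSB-2 libraries. In a principal component analysis of 13489 genes, the first component held 71.1% of the variance. On it the scrambled libraries had scores of -38.6 and -36.6, wild-type libraries -6.88 and -7.64, shRNA-4057 libraries 17.1 and 15.5, and shRNA-4058 libraries 27.6 and 29.5. Wild-type cells thus lay between the scrambled and the USP7 shRNA libraries. Both scrambled libraries were the highest or the lowest of the 8 for 46.8% of these genes, compared with 42.8% for shRNA-4058, 23.8% for wild-type and 19.1% for shRNA-4057. The components describe these 8 libraries and were not tested.

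**Figure D2:**
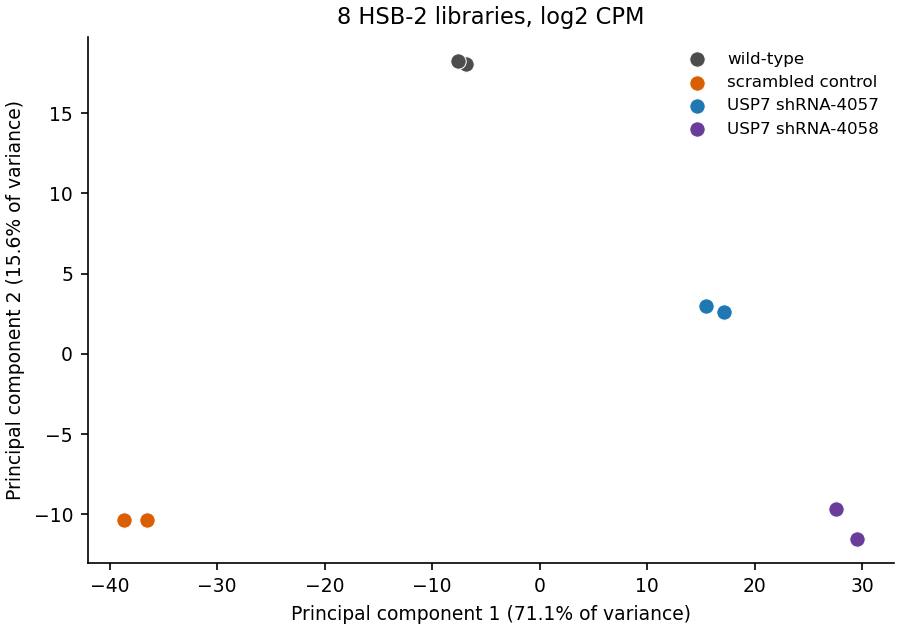
Scores of the 8 HSB-2 libraries on the first and second principal components of log2 CPM (no unit; share of the variance on each axis). Each point is a library; the scrambled libraries lie at -38.6 and -36.6 on the first axis, the wild-type libraries at -6.88 and -7.64 and the USP7 shRNA libraries above 15.

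Genes that were higher in scrambled cells were led by receptors, a granulocyte factor and an imprinted RNA. By the rule for named genes, which ranks called genes of at least 2 CPM and had 6052 candidates, the 12 highest were SUCNR1, CYBB, CEBPE, RAB44, GPR84, LSAMP, H19, ADAMTS2, FAM124A, KBTBD11, NEBL and CST7. SUCNR1 (ENSG00000198829.5, chr3:151591431-151602407 on GRCh37), a receptor for succinate, had 0.25 and 0.263 CPM in the wild-type libraries and 5.87 and 4.91 CPM in the scrambled libraries. The scrambled libraries were far above the wild-type ones, and the difference of log2 4.40 (SE 0.23, edgeR adjusted p = 2.14e-12) was the highest of the candidates. SUCNR1 lies across the antisense gene AADACL2-AS1.

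CEBPE (ENSG00000092067.5, chr14:23586245-23589465), a transcription factor of granulocyte maturation, had 11.4 and 11 CPM in wild-type and 62.7 and 66.3 CPM in scrambled libraries. It rose 5.75-fold (log2 2.52, SE 0.068, edgeR adjusted p = 2.10e-18). CYBB, the catalytic subunit of the phagocyte NADPH oxidase, had 0.925 and 0.978 CPM in wild-type and 7.93 and 7.93 CPM in scrambled libraries, a rise of 8.37-fold. Another gene model on the same strand overlaps CYBB. GPR84, a G-protein-coupled receptor for medium-chain fatty acids, was at 7.58 and 7.1 against 39.5 and 40.9 CPM and rose 5.46-fold. These genes are known from myeloid cells. Beside them, 4 of the 10 genes in the myeloid marker list had enough counts to be tested. Their summed level was 0.284 to 0.473 CPM in wild-type and 0.134 to 0.256 CPM in scrambled libraries. Within that list S100A8 was at 0, MPO, LYZ and ELANE had at most 4 counts in a library, and the only called member, CD33, was lower.

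H19 (ENSG00000130600.11, chr11:2016396-2025782), a noncoding RNA expressed from the maternal allele of an imprinted locus, had 40.4 and 38.4 CPM in wild-type and 197 and 205 CPM in scrambled libraries. It rose 5.1-fold (log2 2.35, SE 0.059, edgeR adjusted p = 2.10e-18). LSAMP, a cell adhesion molecule best known from neurons, rose from 4.09 and 3.85 to 21.8 and 20.7 CPM. CST7, which encodes cystatin F, an inhibitor of the proteases that activate granzymes, had 1.5 and 1.95 CPM in wild-type and 7.12 and 7.67 CPM in scrambled libraries. The groups were far apart for all of these genes. The other members of the 12, RAB44, ADAMTS2, FAM124A, KBTBD11 and NEBL, had log2 fold changes between 2.26 and 2.52 and were under 9 CPM in each control library.

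Genes that were lower in scrambled cells were led by signalling regulators and by immediate early genes. The 12 lowest by the same rule included RGS6, ANXA1, THBS1, EPAS1, EGR2, SGK1, CD93, FOSB, SKAP1, PROZ and FOS. RGS6 (ENSG00000182732.12, chr14:72399146-73033238), which turns off G-protein signals, had 14.8 and 14.5 CPM in wild-type libraries and 0.557 and 0.603 CPM in scrambled libraries. It fell 25.2-fold (log2 -4.66, SE 0.16, edgeR adjusted p = 1.86e-16).

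EPAS1 (ENSG00000116016.9, chr2:46520806-46613836), which encodes the hypoxia-inducible factor HIF-2α, had 81.7 and 83.9 CPM in wild-type and 7.28 and 6.81 CPM in scrambled libraries, and fell 11.7-fold (edgeR adjusted p = 3.21e-22). ANXA1, the phospholipid-binding protein annexin A1, had 20.3 and 19.9 against 1.18 and 1.03 CPM and fell 18.2-fold. THBS1, the matrix glycoprotein thrombospondin 1, had 19.5 and 18.1 against 1.26 and 1.02 CPM. Of these, only THBS1 lies across a protein-coding gene on the other strand (FSIP1). SKAP1, an adaptor between the T-cell receptor and integrins, fell from 7.79 and 7.67 to 0.937 and 0.968 CPM and overlaps 2 antisense genes. The scrambled libraries were below both wild-type libraries for all 12 genes, which the rule required.

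At the highest counts, the called genes with at least a 2-fold change were EGR1, ADAM19, IER2, JAK3, SH3BP5 and SASH3, and all 6 were lower. ADAM19, a membrane metalloprotease, fell from 483 and 485 to 199 and 203 CPM. SH3BP5, a binding partner of the kinase BTK, fell from 224 and 224 to 62.2 and 64.8 CPM, and SASH3, a signalling adaptor of lymphocytes, from 184 and 184 to 87.2 and 88 CPM. For these 3 genes the replicates differed by less than 5 CPM, far less than the groups did.

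Immediate early and AP-1 genes were lower in scrambled cells almost throughout. Of 28 members tested, 26 were lower and 2 were higher, against 17.9% and 16.1% of all genes, and 13 of those lower changed at least 2-fold. Their median log2 fold change was -0.79. EGR1 (ENSG00000120738.7, chr5:137801168-137804992 on GRCh37), a zinc finger factor induced by mitogens, had 655 and 671 CPM in wild-type and 155 and 155 CPM in scrambled libraries. The pairs of libraries were nearly identical within each group and 4.28-fold apart (log2 -2.10, SE 0.039, edgeR adjusted p = 2.49e-21).

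FOS, a subunit of the AP-1 factor, had 58.6 and 59.7 CPM in wild-type and 7.75 and 8.05 CPM in scrambled libraries (log2 -2.90, edgeR adjusted p = 7.34e-20). Its relative FOSB had 21.5 and 20.9 against 2.52 and 2.41 CPM, and their partner JUN 129 and 131 against 51.2 and 53.5 CPM. EGR2 stood at 15.8 and 14.8 against 1.75 and 1.67 CPM and EGR3 at 15.9 and 15.9 against 2.38 and 2.44 CPM. In each case both scrambled libraries lay below both wild-type libraries. FOSB overlaps ERCC1 on the other strand, whereas EGR1, EGR2 and FOS overlap no other gene.

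The fall reached the feedback inhibitors that the same signals induce. The phosphatases DUSP2, DUSP4, DUSP5 and DUSP6, which inactivate MAP kinases, had log2 fold changes of -1.07, -1.61, -1.47 and -0.48. The nuclear receptor NR4A1, a reporter of antigen receptor signals, fell from 22.7 and 22.7 to 6.55 and 7.12 CPM. The 2 members that rose were SPRY1 (log2 0.67) and SPRED1 (log2 0.19), inhibitors of the RAS pathway. Only 1 of them was called with a correction for GC and length, without wild-type replicate 1 and without either scrambled replicate. In the USP7 shRNA libraries EGR1 was at 1009.6 and 965 CPM (shRNA-4057) and 1117 and 1214 CPM (shRNA-4058), and FOS at 92.7 and 91.5 and 106 and 109 CPM. Both scrambled libraries were lowest of the 8 for 26 of the 28 genes, where this held for 24.3% of the 13489 genes examined.

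The promoters of EGR1 and FOS are shown because both genes fell at least 4-fold. RefSeq promoters (250 bases before to 50 after the start, build GRCh38.p14, plus strand for both genes) were found for 23 of the 28 members, and motifs were searched on both strands. A symbol with several starts counted as holding a motif if any of them held it, here and below. Capitals mark CArG boxes, the site of serum response factor, and TGACG, the core of a cAMP response element.
EGR1 promoter, chr5:138465229-138465528: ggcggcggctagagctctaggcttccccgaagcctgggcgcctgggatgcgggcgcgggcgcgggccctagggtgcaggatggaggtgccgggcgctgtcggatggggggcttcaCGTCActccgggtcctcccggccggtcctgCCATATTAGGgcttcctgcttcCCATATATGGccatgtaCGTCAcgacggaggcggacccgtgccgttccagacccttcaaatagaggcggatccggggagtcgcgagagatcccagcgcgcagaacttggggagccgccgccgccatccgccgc
FOS promoter, chr14:75278578-75278877: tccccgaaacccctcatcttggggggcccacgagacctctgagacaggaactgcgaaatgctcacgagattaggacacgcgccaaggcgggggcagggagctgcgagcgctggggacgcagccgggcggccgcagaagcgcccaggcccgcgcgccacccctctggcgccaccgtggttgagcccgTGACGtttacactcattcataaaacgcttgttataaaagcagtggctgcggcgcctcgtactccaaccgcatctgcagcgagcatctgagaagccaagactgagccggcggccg
The EGR1 window held 2 CArG boxes and 2 TGACG sites, and the FOS window held 1 TGACG site. TGACG was found in 13 of the 21 lower members with a promoter (61.9%) and in 28.4% of 27305 RefSeq symbols with a promoter. A CArG box was found in 2 of the 21 (9.52%) and in 1.6% of all. The AP-1 site TGANTCA was found in 1 of the 21 (4.76%) and in 9.37% of all. A motif match describes the letters of the window only. Nearly the whole list was lower, so these shares describe the list and not the difference between the groups.

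**Figure D3:**
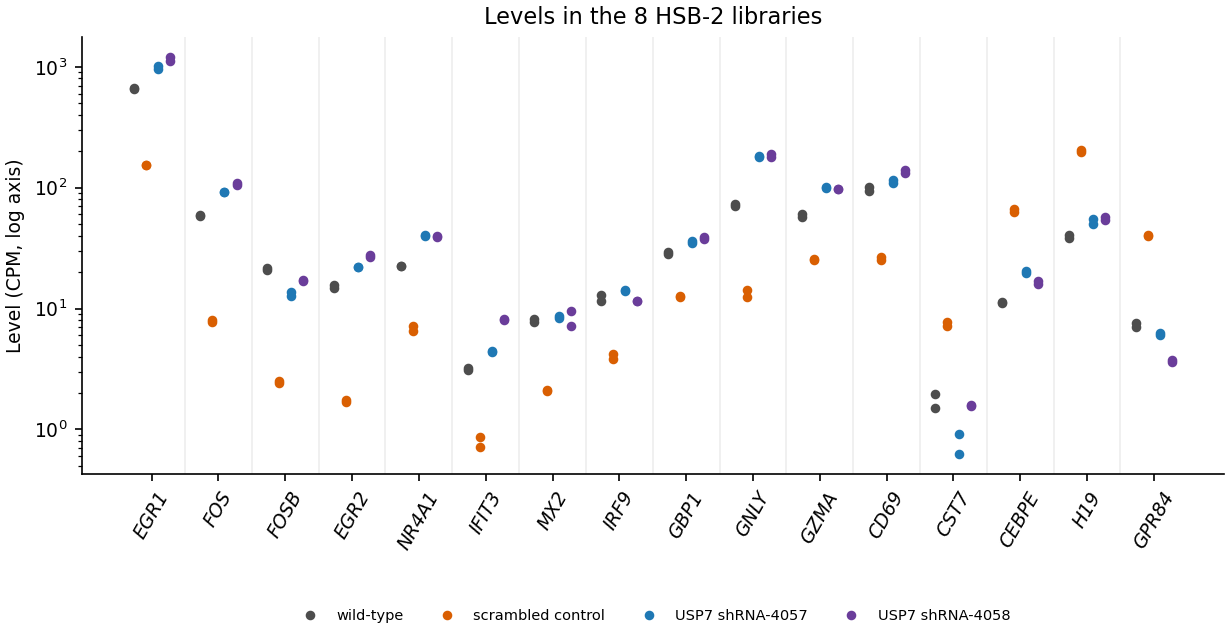
Levels in CPM (log axis) of 16 genes in the 8 HSB-2 libraries, each point a library and each colour a group. From EGR1 to CD69 both scrambled libraries lie below the other 6, and for CST7, CEBPE, H19 and GPR84 they lie above them.

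Interferon response genes were lower in scrambled cells. Of 43 members tested, 35 were lower, 12 of them at least 2-fold, and 1 was higher (HERC5, log2 0.26). The median log2 fold change was -0.51. MX2, a GTPase that blocks viruses in the nucleus, had 8.21 and 7.68 CPM in wild-type and 2.12 and 2.09 CPM in scrambled libraries (log2 -1.92, SE 0.11, edgeR adjusted p = 1.27e-12). IRF9, the DNA-binding subunit of the interferon-activated ISGF3 complex, had 12.9 and 11.5 against 4.2 and 3.82 CPM, a 3.06-fold fall. The groups did not overlap for either gene.

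Other interferon response genes fell by different amounts. STAT2, a partner of IRF9, had 65.2 and 64.4 against 51.7 and 51.6 CPM (log2 -0.33). IFIT3, an RNA-binding antiviral protein, fell from 3.2 and 3.09 to 0.712 and 0.865 CPM. It overlaps LIPA on the other strand. GBP1, a guanylate-binding GTPase, fell from 29.2 and 28.3 to 12.6 and 12.5 CPM, and SAMD9L, an inhibitor of translation, from 15.4 and 16.8 to 6.3 and 5.38 CPM. The members MX1, RSAD2, BST2 and IFITM3 were measured at 25 CPM or more and were not called, with log2 fold changes of -0.05, -0.07, 0.08 and -0.02. Both scrambled libraries were the lowest of the 8 for 37 of the 43 genes. Among the 13489 genes examined this held for 24.3%.

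The promoter of IFIT3 is shown because it holds the letters most often found in this group. Capitals mark GAAANNGAAA, the core of the interferon-stimulated response element, here on the reverse strand.
IFIT3 promoter, chr10:89327747-89328046: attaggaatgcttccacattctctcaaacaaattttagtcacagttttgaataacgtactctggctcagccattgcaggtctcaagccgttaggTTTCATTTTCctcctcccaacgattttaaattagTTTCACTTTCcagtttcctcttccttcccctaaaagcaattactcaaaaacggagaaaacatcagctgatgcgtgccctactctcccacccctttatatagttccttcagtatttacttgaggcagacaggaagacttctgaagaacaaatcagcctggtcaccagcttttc
IFIT3 had 2 starts, and the start shown was taken by ranking them by their number of such sites. It held 2 such sites. The element was found in 16 of 27 lower interferon response genes with a RefSeq promoter (59.3%), in 0 of the 21 lower immediate early genes and in 4.38% of all symbols with a promoter. The interferon list was written from general knowledge, with earlier results of these data known. Most of it was lower, so the share describes the list and not the difference between the groups.

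Sensors and restriction factors for foreign nucleic acid were lower or not called in most cases. Of 26 tested, 15 were lower and 2 were higher (1 without wild-type replicate 1 or scrambled replicate 2). SAMHD1, which destroys the deoxynucleotides that reverse transcription needs, had 7.34 and 6.31 CPM in wild-type and 1.27 and 1.1 CPM in scrambled libraries, a 5.78-fold fall. CGAS, the sensor of cytosolic DNA, had 9.38 and 10.4 against 3.88 and 3.12 CPM, and TMEM173 (STING), its downstream adaptor, 95.2 and 93.7 against 66.2 and 70.3 CPM. The scrambled libraries were below the wild-type libraries for all of them. The RNA sensors DDX58 (RIG-I) and IFIH1 (MDA5) had log2 fold changes of -0.14, not called, and -0.50, called. EIF2AK2 (PKR), a kinase activated by double-stranded RNA, rose (log2 0.32, edgeR adjusted p = 1.05e-04).

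Genes for antigen presentation by MHC class I fell with a smaller size. Of 21 tested, 14 were lower, none of them 2-fold, and 1 was higher (CANX, a chaperone, log2 0.19). HLA-B had 659 and 675 CPM in wild-type and 453 and 474 CPM in scrambled libraries, and B2M, the light chain, 731 and 757 against 598 and 582 CPM. The immunoproteasome subunit PSMB9 had 34.7 and 35 against 23.4 and 24.2 CPM and overlaps PSMB8 and TAP1 on the other strand. HLA genes resemble each other, which makes the division of reads among them uncertain.

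The NF-kB pathway was lower in its subunits, inhibitors and targets. Of 22 members tested, 19 were lower and 1 was higher, with a median log2 fold change of -0.47. Among subunits, NFKB1 had 135 and 136 CPM in wild-type and 67.5 and 68.8 CPM in scrambled libraries, RELB 13.8 and 12.8 against 6.25 and 6.69 CPM, and REL 49.1 and 50.5 against 50.6 and 48.1 CPM. REL was not called (log2 -0.01). BCL3 and NFKBIZ, nuclear IkB proteins, fell from 23.1 and 23.2 to 6.37 and 6.28 CPM and from 9.57 and 9.19 to 2.04 and 1.89 CPM. The cytokines TNF, LTA and LTB, which are targets of the pathway, had log2 fold changes of -1.02, -1.01 and -1.02. The member that rose was CXCL8, a neutrophil chemokine, from 29 and 6 counts in wild-type to 76 and 66 counts in scrambled libraries. That call was lost in 3 of 14 other settings, thinned to equal depth, without wild-type replicate 2 and without scrambled replicate 1.

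Cytokine receptors and their kinase moved the same way. In the JAK-STAT list 18 of 26 genes were lower and 2 were higher. JAK3, the kinase bound to the common gamma chain, had 262 and 265 CPM in wild-type and 116 and 123 CPM in scrambled libraries (log2 -1.14, SE 0.039, edgeR adjusted p = 1.36e-16). Receptor chains that fell were IL2RB (44.6 and 42.8 to 17.4 and 17.5 CPM), IL21R (7.04 and 6.94 to 1.81 and 1.88 CPM), IL10RA and IL4R, with log2 fold changes of -1.47 and -0.70 for the last 2. The common gamma chain IL2RG fell by less (log2 -0.17). STAT3 and STAT4 had log2 fold changes of -0.46 and -1.06. The members that rose were IL6ST (log2 0.73), the signal chain of IL-6 receptors, and SOCS3 (log2 0.38), a feedback inhibitor.

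T-lineage surface genes were lower in scrambled cells. Of 26 tested, 18 were lower and 1 was higher (CD38, log2 0.57), with a median log2 fold change of -0.42. CD69, an early activation marker, had 94.2 and 101 CPM in wild-type and 26.7 and 25.2 CPM in scrambled libraries (log2 -1.91, SE 0.061, edgeR adjusted p = 4.44e-17). The CD3 chains, which carry the T-cell receptor signal, had log2 fold changes of -0.44 (CD3D), -0.40 (CD3G) and -0.17 (CD3E), all called. CD2 and CD8A were low in HSB-2 and fell from 3.87 and 3.04 to 0.819 and 0.786 CPM and from 2.79 and 2.5 to 0.482 and 0.717 CPM. CD28 had 0.381 and 0.41 against 0.0535 and 0.0455 CPM. Among the cortical thymocyte markers, CD1A fell from 8.21 and 7.45 to 4.62 and 4.24 CPM, and CD1B and CD1E were near the detection limit. In the marker list for T lineage 13 of 14 genes were lower and none was higher, and the level of BCL11B, the member not called, was 247 and 254 against 267 and 266 CPM. In bulk RNA, fewer cells of a type and less RNA per cell cannot be told apart.

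The adaptors behind the receptor followed. Of 22 T-cell receptor signalling genes, 18 were lower and 1 was higher (RASGRP1, log2 0.17). LCP2 (SLP-76), a scaffold, had 343 and 333 CPM in wild-type and 214 and 220.3 CPM in scrambled libraries. PTPN22, a phosphatase that restrains the receptor, had 10.6 and 9.53 against 4.12 and 3.89 CPM. The kinase LCK changed little (log2 -0.15), and CD247 and FYN were not called. 

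Cytotoxic genes had the lowest median of the 36 lists, -1.21 on the log2 scale. Of 15 tested, 11 were lower, 9 of them at least 2-fold, and CST7, described above, was the only one higher. GNLY (granulysin) had 72.7 and 70.7 CPM in wild-type and 12.6 and 14.3 CPM in scrambled libraries, a 5.34-fold fall. GZMA (granzyme A) had 56.7 and 60.7 against 25.5 and 25.1 CPM, NKG7 134 and 133 against 75.8 and 77.5 CPM, and TNFSF10, the death ligand TRAIL, 109 and 112 against 43.9 and 41 CPM. The groups did not overlap for any of these. The call for GZMB (granzyme B) rests on 35 and 6 counts in the wild-type and 1 and 0 counts in the scrambled libraries, and that for GZMK (granzyme K) on 8 and 3 and 1 and 0 counts.

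Transcription factors of T cells were lower more often than higher (62.5% and 20.8%). Over all genes tested 17.9% were lower and 16.1% higher, and at 5 CPM or more 25.8% and 25.9%. The share of this list that was higher was thus near that of all genes. Of 24 tested, 15 were lower and 5 were higher, and the latter were 3 without wild-type replicate 1 and without scrambled replicate 1. RUNX3 fell from 344 and 350.0 to 241 and 251 CPM while RUNX1 rose from 249.8 and 258 to 362 and 349.7 CPM. TCF7 and GATA3, which set T-cell identity, had log2 fold changes of -0.34 and -0.36, and SATB1, a chromatin organizer, rose (log2 0.32). KLF2, which drives genes of lymphocyte exit such as S1PR1, fell from 6.25 and 5.41 to 2.59 and 2.87 CPM, and S1PR1, a receptor for sphingosine 1-phosphate, also fell (log2 -0.94). In the trafficking list 15 of 23 genes were lower and 4 higher. There the integrin chain ITGB7 fell from 56.5 and 56.6 to 14.6 and 15 CPM, whereas ITGA4, its partner in the gut-homing integrin, rose from 133 and 144 to 198 and 192 CPM.

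TAL1 and the E proteins, which the study examines, changed little. TAL1, the oncogenic factor of this line, had 117 and 119.6 CPM in wild-type and 99.8 and 104 CPM in scrambled libraries (log2 -0.22, SE 0.033, edgeR adjusted p = 1.56e-05). The E proteins TCF3 (E2A) and TCF12 (HEB) were not called, with levels of 274 and 275 against 249.7 and 261 CPM for TCF3 and 117 and 118 against 112 and 111 CPM for TCF12. The ID proteins, which sequester E proteins, were lower: ID2 fell from 32.2 and 31.7 to 15 and 13.4 CPM and ID3 from 67.6 and 68.1 to 44.9 and 46.9 CPM. LMO2, a bridging subunit of the TAL1 complex, was higher (log2 0.28), and LYL1 and CBFA2T3 were lower (log2 -0.57 and -0.58). RAG1, RAG2, PTCRA and LMO1 had at most 25 counts in any of the 4 libraries and were not called, too few to resolve a change. In the NOTCH1 and MYC list 5 of 19 genes were higher (26.3%), MYC (log2 0.23), HES1 (log2 0.35) and RBPJ (log2 0.56) among them. Another 6 were lower (31.6%), including NOTCH1 (log2 -0.25) and DTX1 (log2 -2.63). DTX1 was low, with 101 and 23 counts in wild-type and 6 and 16 counts in scrambled libraries. With a correction for GC and length 8 genes of the list were higher. Among all genes at 5 CPM or more, 25.9% were higher and 25.8% lower.

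**Figure D4:**
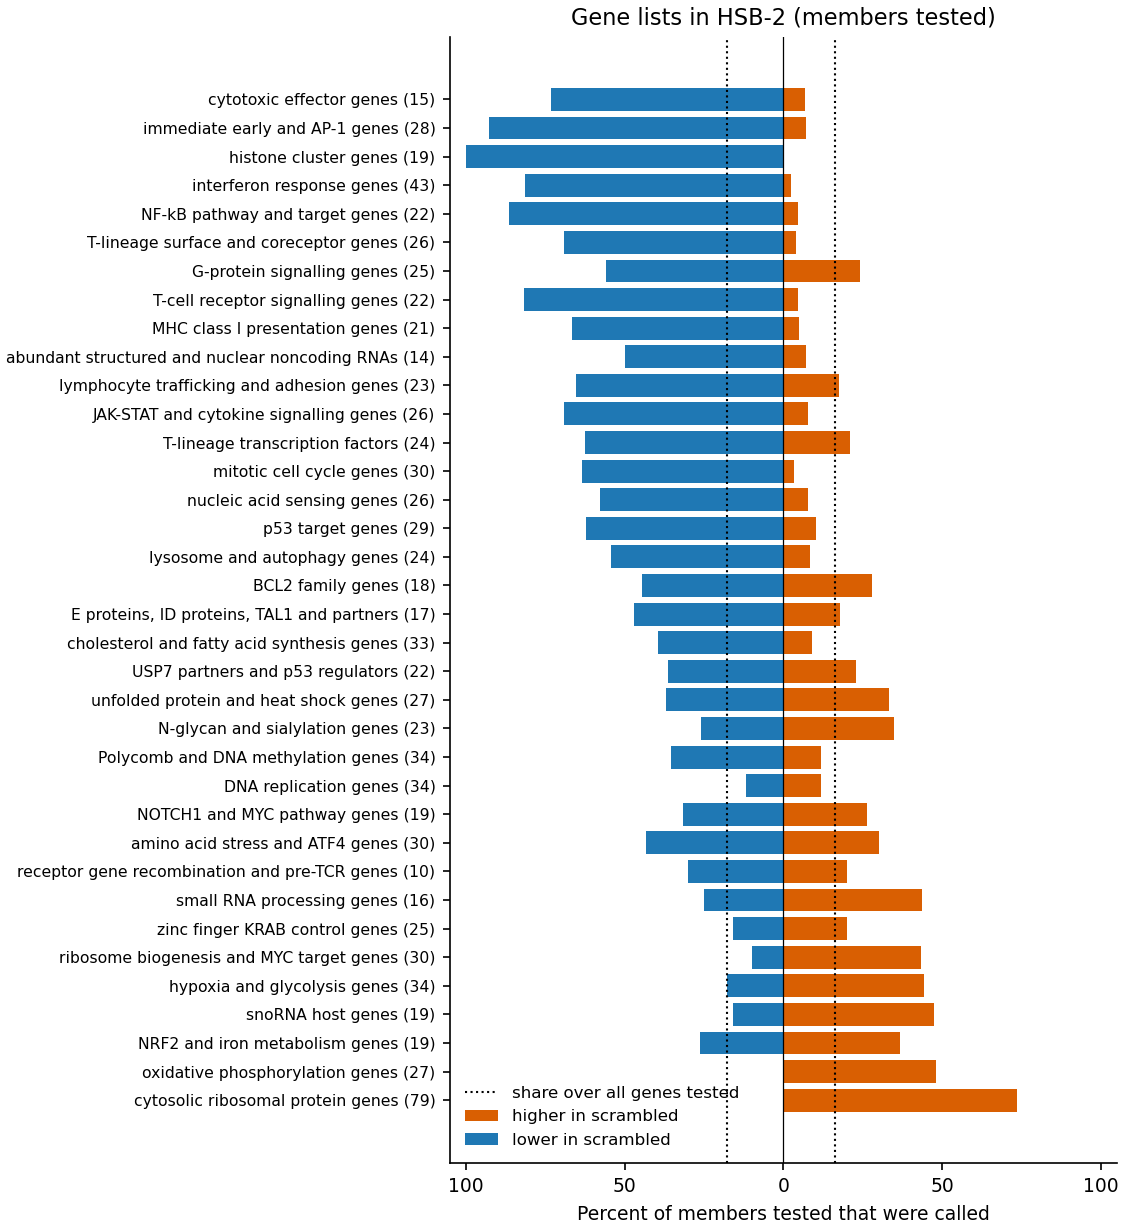
Share of the members tested (number in brackets) that were called higher (orange, to the right) or lower (blue, to the left) in scrambled HSB-2 cells, in percent, for 36 gene lists sorted by median log2 fold change. Dotted lines mark 16.1% higher and 17.9% lower over all genes tested; the histone and immediate early lists reach furthest to the left and cytosolic ribosomal proteins furthest to the right.

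Histone genes of the replication-dependent clusters were lower throughout. All 19 tested were lower, with log2 fold changes from -0.78 to -0.22 and a median of -0.56, and 8 more genes of the list were not analysed here. Their transcripts lack poly(A) tails and were kept by the ribosomal RNA depletion used here. The linker histone gene H1-4 had 489 and 474 CPM in wild-type and 272 and 288 CPM in scrambled libraries, and H3C4 514 and 546 against 315 and 335 CPM. The summed level of the 19 genes was 8659.6 to 8738 CPM in wild-type and 5617 to 5975 CPM in scrambled libraries. Copies of a histone type are near-identical, so their individual counts are uncertain.

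Genes of DNA replication did not fall with the histones. Of 34 tested, 4 were higher and 4 were lower, with a median of -0.01. With a correction for GC and length 12 were higher, and without wild-type replicate 1 the number higher was 2. The exception in size was TK1, the thymidine salvage kinase, with 10.7 and 10.1 CPM in wild-type and 2.87 and 2.36 CPM in scrambled libraries. MCM4 and MCM6, subunits of the replicative helicase, rose slightly (log2 0.14 and 0.10), and RRM2 fell slightly (log2 -0.24). Mitotic genes were lower for 19 of 30 and higher for BUB1 alone, none at 2-fold. PLK1, the mitotic kinase, had 115 and 117 against 78.2 and 81.6 CPM, MKI67 1487 and 1464 against 1084 and 1116 CPM, and BUB1, a spindle checkpoint kinase, 343 and 361 against 562 and 540.3 CPM.

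Target genes of p53 were lower for 18 of 29 (62.1%) and higher for 3 (10.3%), against 17.9% and 16.1% of all genes tested. With a correction for GC and length 14 were lower and 4 higher, and the median log2 fold change was -0.10 instead of -0.18. CDKN1A, the cell cycle inhibitor p21, had 86.6 and 86.6 CPM in wild-type and 43.8 and 43.6 CPM in scrambled libraries (log2 -0.99, SE 0.056, edgeR adjusted p = 1.51e-12). MDM2 and BAX, further targets, were not called (log2 0.02 and 0.01). RRM2B and CCNG1 rose (log2 0.56 and 0.34). In the BCL2 family, MCL1, BCL2L1 and BCL2, which protect from apoptosis, had log2 fold changes of -0.65, -0.36 and -0.32. BMF, a pro-apoptotic BH3 protein, rose from 25.5 and 24.7 to 56.5 and 54.5 CPM, and BNIP3, a mitophagy receptor, from 43.1 and 41.6 to 86.5 and 90.0 CPM. The pro-apoptotic PMAIP1 and BBC3 were lower (log2 -0.54 and -0.20), so that pro-apoptotic members moved both ways and the protective members named fell.

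Genes of the translation apparatus were higher. Of 79 cytosolic ribosomal protein genes, 58 were higher and none was lower, with a median log2 fold change of 0.18 and none at 2-fold. RPL22 had 282 and 289 CPM in wild-type and 381 and 367 CPM in scrambled libraries, the largest rise of the list (log2 0.39). Their summed level was 43043 to 43264 CPM in wild-type and 47812 to 49912 CPM in scrambled libraries. The scrambled libraries were both the highest of the 8 HSB-2 libraries for only 6 of the 79 genes. Among the 13489 genes examined this held for 22.5%. In a joint list of ribosome biogenesis genes and MYC targets, 13 of 30 were higher and 3 lower. NPM1 (nucleophosmin) had 665 and 684 against 816 and 819.6 CPM, and TERT, the telomerase reverse transcriptase, 3.02 and 3.23 against 6.67 and 6.58 CPM. Without scrambled replicate 2 the number of ribosomal protein genes called was 44.

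Genes of oxidative phosphorylation were higher where called, and those of hypoxia and glycolysis were higher more often than lower. Of 27 nuclear genes of oxidative phosphorylation, 13 were higher and none was lower, with a median of 0.10 (8 by another scaling, RLE, and 6 or 7 when any 1 library was left out). Among 34 hypoxia and glycolysis genes 15 were higher (44.1%) and 6 lower (17.6%). Over all genes tested 16.1% were higher and 17.9% lower, and at 5 CPM or more 25.9% and 25.8%. The share of this list that was lower was thus no larger than over all genes. ENO1 (enolase) had 4819 and 4767 CPM in wild-type and 6006 and 6311 CPM in scrambled libraries, PGK1 1962 and 1979 against 2390.1 and 2450.0 CPM, and PDK1, which keeps pyruvate out of mitochondria, 117 and 117 against 188 and 175 CPM. HIF1A fell (log2 -0.31), as EPAS1 did, and the HIF target VEGFA was not called. With a correction for GC and length 24 genes of this list were called higher. Over 9976 coding genes of at least 5 CPM, cut into 4 equal bins of GC content, the median log2 fold change was 0.098 in the lowest bin and -0.096 in the highest (Spearman's rho -0.33 across genes, a description of these libraries).

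Jurkat cells, compared in the same way, gave fewer calls. Their control libraries held 86892818 to 110265819 counts, against 99208328 to 235467749 in HSB-2, so the sensitivity differed. With the HSB-2 control libraries thinned to equal depth, 7235 genes were called in HSB-2. The 10 highest genes held 10.9% and 12.1% of counts in wild-type and 14.9% and 17.0% in scrambled Jurkat libraries. Of the 23063 genes, 5964 (25.9%) were called between scrambled and wild-type Jurkat cells, 3420 higher (14.8%) and 2544 lower (11%). The difference of the scrambled effect between the lines, tested as an interaction, was called for 28.4% of genes, 12% higher and 16.4% lower in HSB-2. Of 11371 genes with at least 2 CPM in both lines, 2549 were called in both, which is 44.4% of the HSB-2 calls and 53.2% of the Jurkat calls. The share called among all 11371 was 42.2% for Jurkat and 50.4% for HSB-2, so that the calls of one line were hardly more frequent among those of the other than among all of these genes. Of the genes called in both, 61.0% had the same direction. The log2 fold changes of the 2 lines had a Pearson's r of 0.13 and a Spearman's rho of 0.10 across these genes, which share no library and are not independent replicates. Of the 172 genes with a called 2-fold change in HSB-2, the difference between the lines was itself called for 165. These genes were picked by their HSB-2 change, which is part of that difference, so the high share follows largely from the choice.

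Several gene groups moved differently in the lines, and some of them moved in opposite directions. Of the 28 immediate early genes, 21 were higher and none was lower in scrambled Jurkat cells, and the difference between the lines was called for 24, all lower in HSB-2. EGR1 had 45.9 and 46.7 CPM in wild-type and 180.1 and 185 CPM in scrambled Jurkat libraries. Histone cluster genes were higher for 17 of 19 and lower for none in Jurkat, with the difference called for all 19. NF-kB genes were higher for 10 of 22 and lower for 3. Interferon response genes were higher for 15 of 43 and lower for 16, MHC class I genes higher for 11 of 21 and lower for 3, and DNA replication genes higher for 27 of 34. Cytosolic ribosomal protein genes were higher in both lines, 71 of 79 in Jurkat and 58 in HSB-2, with medians of 0.33 and 0.18. Among the leading genes of HSB-2, CEBPE and GPR84 were also higher in scrambled Jurkat cells (log2 1.25 and 2.35) and ANXA1 was also lower (log2 -1.24), all called.

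**Figure D5:**
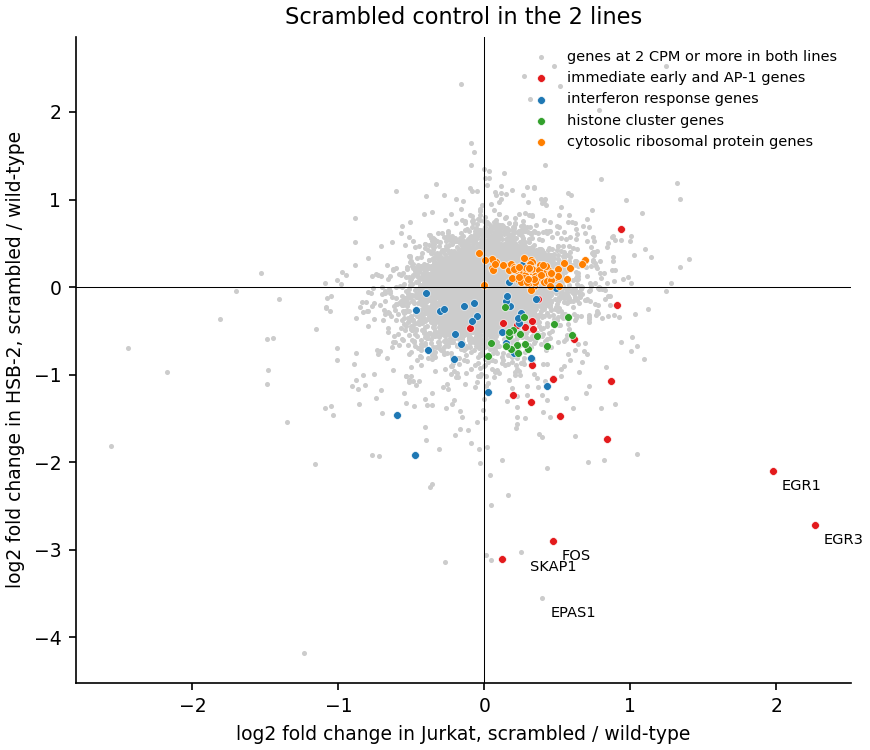
Log2 fold change between scrambled and wild-type cells in Jurkat (horizontal) and HSB-2 (vertical) for genes of at least 2 CPM in both lines, each point a gene, with 4 gene lists in colour. Most immediate early genes lie to the lower right, lower in HSB-2 and higher in Jurkat, histone genes lie to the right of 0 and below it, and nearly all ribosomal protein genes lie above 0 in HSB-2.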

How the data were processed

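Total RNA was depleted of ribosomal RNA, made into stranded libraries and sequenced on an Illumina NovaSeq. The authors aligned read pairs with BWA to GRCh37-lite and transcript collections and counted the reads of each gene by HT-seq; the submitters' processing notes list HTSeq 0.6.1p1, STAR and hg19. The deposited table holds raw counts for 57820 Ensembl identifiers and 16 libraries, not pooled. The strand setting and annotation release were not given in the sources used here, so overlapping and antisense genes are uncertain. Symbols came from GENCODE 44 mapped to GRCh37, which held 55538 of the identifiers.

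In R 4.3.3, edgeR 4.0.16 was fitted to all 16 libraries as 8 groups, with filterByExpr, TMM factors (0.882 to 1.15) and the quasi-likelihood F-test, adjusted over all 23063 genes tested. The SE is the absolute log2 fold change divided by the square root of F. The test was checked on simulated data. Levels are CPM from TMM-scaled totals. The named genes were the 12 highest and 12 lowest called genes of at least 2 CPM with groups apart, up to 4 called members per list, the 6 with the highest CPM among 2-fold changes, genes the study discusses, and 5 in each direction called oppositely between the lines. Some genes that these rules name are not reported here. Alternatives were DESeq2 1.42.0, other scaling and filters, subsets of libraries, thinning, a GC and length offset, a replicate block and leaving out each library. The comparison, gene lists and rules were chosen with earlier results of these data known. Counting intervals and detection limits cover counting error only.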

Additional observations from a re-analysis of the deposited data

Results flagged for a closer look

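The scrambled effect differed between HSB-2 and Jurkat. A test of the difference itself, an interaction term in the edgeR quasi-likelihood fit, called 6550 genes (28.4% of those tested), 2764 higher and 3786 lower in HSB-2.

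Among 959 genes called in opposite directions in the lines, the lowest differences on the log2 scale (HSB-2 minus Jurkat) were those of EGR3 (-4.99), EGR1 (-4.08), EPAS1 (-3.95), FOS (-3.38) and SKAP1 (-3.27), all lower in scrambled HSB-2 cells and higher in scrambled Jurkat cells. EGR3 had 15.9 and 15.9 CPM in wild-type and 2.38 and 2.44 CPM in scrambled HSB-2 libraries, and 0.89 and 0.756 against 4.28 and 3.73 CPM in the same order in Jurkat. EPAS1 had 6.84 and 7.4 CPM in wild-type and 8.95 and 9.75 CPM in scrambled Jurkat libraries. Among the highest were CABLES1 (1.70), SLC23A1 (1.68), IGIP (1.44) and GRM4 (1.26), higher in scrambled HSB-2 and lower in scrambled Jurkat cells. CABLES1, a partner of cyclin-dependent kinases, had 45.2 and 43.3 CPM in wild-type and 94.9 and 94.3 CPM in scrambled HSB-2 libraries, and 2.52 and 2.7 against 1.68 and 1.75 CPM in Jurkat. The lines share no library, only the estimate of the spread. Why the lines differ was not tested.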

How the results depend on the processing

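The number of called genes stayed within 1.5 times 7857 in each alternative run, except that 960 genes passed when the change had to exceed 1.5-fold. Leaving out 1 library gave 5466 to 6573 calls, which held 67.6% to 79.4% of the main calls. The correction for GC and length gave 4753 higher and 3750 lower calls, or 44.1% lower against 52.6%, and the genes with a 2-fold change were 64.6% to 74.1% lower in every setting tried. The replicate numbers did not pair the libraries (correlation of deviations -0.13 over 11191 genes): the replicate block gave 3681 higher and 4085 lower calls, and a crossed block, added after seeing the data, 3574 and 3992. Of the 183 named genes, 3 lost or turned their direction without wild-type replicate 1, all at 34 counts or fewer in each control library. Leaving out 1 library each, DNTT ranged from -2.28 to 1.44, ARPP21 from -5.10 to 2.62 and IL7R from -4.55 to 0.00 on the log2 scale. The cause was not tested. Of the named genes tested, 9 lost their call without that library and 11 without scrambled replicate 1. Differences that rest on counts near the detection limit of 3 counts were not resolved at this depth.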

Other observations

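Further gene groups are given by their counts in scrambled HSB-2 cells, beside shares of 25.9% higher and 25.8% lower among all genes at 5 CPM or more. In cholesterol and fatty acid synthesis, 13 of 33 genes were lower and 3 higher (1 without scrambled replicate 1, 5 without scrambled replicate 2). FASN, the fatty acid synthase, had 1099.9 and 1118 CPM in wild-type and 772 and 821 CPM in scrambled libraries. In the amino acid stress list 13 of 30 genes were lower and 9 higher. With a correction for GC and length the balance turned, with 10 lower and 13 higher. DDIT3 (CHOP) fell from 13.4 and 12.3 to 5.05 and 4.88 CPM and CHAC1, which degrades glutathione, from 17.5 and 16.2 to 7.4 and 8.01 CPM, while DDIT4, an inhibitor of mTORC1, rose from 581 and 597 to 833 and 874 CPM. DDIT3 overlaps MBD6 and MARS1 on the other strand. In the chaperone list 10 of 27 were lower, with HSPA5 (BiP) at 269.9 and 277 against 191 and 197 CPM, and 9 were higher, with the mitochondrial chaperone HSPD1 at 523 and 540.5 against 691 and 679 CPM. With a correction for GC and length 9 chaperone genes were lower and 11 higher. In the lysosome list 13 of 24 were lower and 2 higher, with 8 lower without wild-type replicate 1 and without scrambled replicate 1, and 1 higher without wild-type replicate 2 and without either scrambled replicate. GABARAPL1, an autophagosome protein, fell from 24.6 and 22.8 to 11.2 and 11.3 CPM. For NRF2 and iron the counts were 7 higher and 5 lower of 19.

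Glycosylation genes held a large change in each direction. MAN1A1, a Golgi mannosidase that trims N-glycans, had 2.64 and 2.63 CPM in wild-type and 0.118 and 0.114 CPM in scrambled libraries, a 22.6-fold fall (edgeR adjusted p = 1.14e-16). MGAT3, which adds the bisecting residue, rose from 9.04 and 8.84 to 18 and 19.1 CPM, and the list of 23 had 8 higher and 6 lower (10 lower by DESeq2). Among G-protein signalling genes, beside RGS6 and GPR84, 14 of 25 were lower and 6 higher, and of their negative regulators RGS1 fell (1.2 and 1.04 against 0.177 and 0.194 CPM) while RGS16 rose (30.8 and 28.9 against 61.3 and 63.3 CPM). The small RNA machinery, which processes hairpins, changed by little: 7 of 16 genes were higher (3 or 4 without either wild-type replicate or scrambled replicate 1) and 4 lower (1 without wild-type replicate 1 or scrambled replicate 1, and 2 without either other library), with log2 fold changes from -0.24 (DGCR8) to 0.21 (SND1), and DICER1, DROSHA and XPO5 at -0.01, 0.06 and 0.21. For USP7 partners the counts were 5 higher and 8 lower of 22 (5 lower without either wild-type replicate), for Polycomb and DNA methylation genes 4 and 12 of 34 (9 and 10 with a correction for GC and length, and 7 higher when the 4 control libraries were fitted alone), for snoRNA hosts 9 and 3 of 19, for KRAB zinc finger control genes 5 and 4 of 25 (2 higher without wild-type replicate 1 or scrambled replicate 1, and 9 when the 4 control libraries were fitted alone), and for receptor recombination genes 2 and 3 of 10 (1 and 1 without wild-type replicate 1 or scrambled replicate 1, 1 higher without wild-type replicate 2, and 1 lower when thinned to equal depth). TET1, a DNA demethylase, rose from 111 and 111 to 158 and 149 CPM, while EZH2 and DNMT1 fell (log2 -0.24 and -0.19). Of 14 structured and nuclear noncoding RNAs, 7 were lower and 1 was higher; TERC, the telomerase RNA, had 26.8 and 27 against 16 and 16.4 CPM, the reverse of TERT.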
